A study of Mus musculus with 26 samples.

Results

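The 43 genes described here make up the transcriptional side of the endoplasmic reticulum (ER) stress response and of the amino acid response. They were listed by name and role, with earlier results of these data known, and were sorted into 7 sensors and transcription factors, 5 stress-induced targets, 9 enzymes of amino acid and one-carbon synthesis, 4 amino acid transporters, 14 ER chaperones and foldases and 4 genes of ER-associated degradation. All 43 were among the 55341 genes listed, and all 43 passed the low-count filter in both experiments. Expression was measured by stranded mRNA sequencing in 26 libraries of C2C12 cells, mouse myoblasts that stop dividing and fuse into myotubes once serum is withdrawn. In the knockdown experiment, proliferating myoblasts received control siRNA (siCtrl) or 1 of the siRNAs siSMYD3#1 and siSMYD3#2 against the lysine methyltransferase SMYD3, were transfected again when differentiation was induced, and were collected at 0 h or 24 h. Each of these 6 groups held 3 libraries, 2 from RNA isolated with the NucleoSpin RNA Kit (NucleoSpin 1 and NucleoSpin 2) and 1 from RNA isolated with TRIzol. In the overexpression experiment (SMYD3 OE), SMYD3 CL5, which is 1 sub-cloned retroviral line carrying tagged SMYD3 (pREV-SMYD3), was compared with cells carrying the empty pREV vector at 0 h and 24 h, with 2 TRIzol libraries per group. In the study's library list the extraction kits also went with different culture passages, so extraction, passage and culture cannot be told apart.

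When unfolded proteins accumulate in the ER, 3 membrane sensors respond. IRE1 (Ern1) splices the mRNA of Xbp1, ATF6 (Atf6) is cut to release a transcription factor, and PERK (Eif2ak3) phosphorylates the translation factor eIF2 alpha. XBP1 and ATF6 drive chaperone and degradation genes, and phosphorylated eIF2 alpha lowers protein synthesis in general while the transcription factor ATF4 is translated more. ATF4 is also made when amino acids run short, through the kinase GCN2, and it drives amino acid synthesis, amino acid import and a set of stress targets that includes CHOP (Ddit3), Trib3 and Chac1. In muscle these pathways are known to be engaged while myoblasts differentiate.

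Short elements known to be bound by these factors were searched in the members' promoters, and the matching sequences are shown so that the calls below can be read beside them. RefSeq promoter windows, from 250 bases before to 50 bases after the gene start on GRCm38.p6, were matched for 39 of 43 members. Hyou1, Atf6, Slc7a5 and Manf had no match. Both strands were searched. The ER stress response element (ERSE), which is CCAAT and CCACG with 9 free bases between them, was found in 8 of the 39 promoters (20.5%), against 0.137% of 27025 promoters. Of these 8, 7 were chaperones (of 12 chaperones with a promoter) and 1 was the degradation gene Syvn1. Each line below is a window around one such element, 5′ to 3′ on the gene's strand, with the element in capitals. Where the element lay on the opposite strand its reverse complement is in capitals. A further, reversed element of Hsp90b1 is not shown.
Hspa5, chr2:34772010-34772058, plus strand: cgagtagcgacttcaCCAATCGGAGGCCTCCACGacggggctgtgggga
Hsp90b1, chr10:86705623-86705671, minus strand: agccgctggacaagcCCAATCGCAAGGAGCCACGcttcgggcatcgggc
Canx, chr11:50325785-50325833, minus strand: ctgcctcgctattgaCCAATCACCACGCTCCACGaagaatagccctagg
Pdia6, chr12:17266476-17266524, plus strand: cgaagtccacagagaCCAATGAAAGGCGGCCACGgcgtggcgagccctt
Dnajc3, chr14:118937812-118937860, plus strand: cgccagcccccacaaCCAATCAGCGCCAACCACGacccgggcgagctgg
Calr, chr8:84847060-84847108, minus strand, element reversed: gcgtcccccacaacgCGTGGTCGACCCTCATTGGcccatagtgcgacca
Creld2, chr15:88819505-88819553, plus strand, element reversed: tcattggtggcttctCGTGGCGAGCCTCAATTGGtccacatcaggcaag
Syvn1, chr19:6046517-6046565, plus strand: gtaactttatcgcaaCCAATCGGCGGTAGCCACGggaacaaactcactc

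The amino acid response element to which ATF4 binds with C/EBP partners, searched as TGATGNAA, was found in 7 of the 39 promoters (17.9%), against 4.51% of all promoters, and in 0 of the 12 chaperone promoters. These 7 were Trib3, Chac1, Vldlr, Asns, Pycr1, Slc7a11 and Herpud1. In Trib3 the match lay downstream of the start and is not shown. The upstream match of Vldlr and a further, reversed match of Slc7a11 are not shown either. The shorter CCACG, which is the end of the ERSE, was in 79.5% of member promoters and 35.5% of all promoters, and the XBP1 element TGACGTGG was in none of the 39 and in 0.714% of all. A match describes letters in a window only.
Asns, chr6:7693210-7693247, minus strand: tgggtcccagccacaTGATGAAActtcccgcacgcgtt
Pycr1, chr11:120643829-120643866, minus strand: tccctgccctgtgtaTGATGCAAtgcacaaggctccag
Slc7a11, chr3:50443657-50443694, minus strand: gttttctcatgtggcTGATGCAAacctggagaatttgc
Chac1, chr2:119351034-119351071, plus strand, element reversed: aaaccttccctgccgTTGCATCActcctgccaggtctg
Herpud1, chr8:94386302-94386339, plus strand, element reversed: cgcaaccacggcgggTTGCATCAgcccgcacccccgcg

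Library totals ran from 14315193 to 60398170 counts in the knockdown experiment and from 21124675 to 67853386 in the overexpression experiment, and no 2 libraries held identical counts. Levels below are CPM, the counts divided by TMM-scaled library size in units of 1000000 reads, and libraries are given in the order NucleoSpin 1, NucleoSpin 2, TRIzol. Smyd3 was at 17.8, 19.9 and 20.7 CPM in siCtrl at 24 h, at 15.2, 15.1 and 19.3 CPM in siSMYD3#1 and at 5.46, 5.37 and 9.65 CPM in siSMYD3#2. The log2 difference from siCtrl at 24 h was -1.51 for siSMYD3#2 (edgeR adjusted p = 5.06e-05) and -0.24 for siSMYD3#1 (adjusted p = 0.414). At 0 h these were -1.41 (adjusted p = 0.000107) and -0.16 (adjusted p = 0.785). A lower Smyd3 mRNA level thus passed for only 1 of the siRNAs. With siSMYD3#1 each library was still below the siCtrl library of the same number at both times. The study also measured Smyd3 mRNA by qPCR and SMYD3 protein by western blot after transfection. In SMYD3 CL5 the counts of Smyd3 were not detectably above the vector control at either time (log2 differences 0.29 and 0.36, adjusted p = 0.593 and 0.671). The study reports checking the tagged protein in its clones by western blot and immunofluorescence. The summed CPM of 6 genes of differentiating muscle was 488 to 1332 in siCtrl at 24 h, 103 to 133 in siSMYD3#1 and 211 to 250 in siSMYD3#2, against 11.6 to 14.7 in siCtrl at 0 h. The summed level of 10 markers of other cell types was 25.2 to 47.0 CPM in siCtrl at 24 h, 9.66 to 25.8 CPM in siSMYD3#1 and 17.9 to 34.2 CPM in siSMYD3#2, against 10.3 to 27.9 CPM in siCtrl at 0 h. Of these 10, Map2 (1.12, adjusted p = 9.70e-05) and Krt8 (1.94, adjusted p = 0.00313) rose over time in siCtrl and Map2 was lowered with siSMYD3#1 (-1.31, adjusted p = 0.000138). Epcam was at 0 in 26 of 26 libraries, Adipoq and Sox10 were at 0 in 22 each, and Pecam1, Cdh5 and Ptprc did not exceed 0.276 CPM. The part of these markers in the member differences was not tested.

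Per kilobase of exon, the most abundant members in siCtrl at 0 h were Atf4 at 303 CPM per kb and the chaperones Calr (302), Pdia3 (289), Hspa5 (255) and Hsp90b1 (253). No test was run on this order, and it depended on the batch. Atf4 was at 805 and 929 CPM in the NucleoSpin libraries and at 411 CPM in the TRIzol library. Calr was at 769 and 894 CPM in the NucleoSpin libraries and at 947 CPM in the TRIzol library. At the other end were the PERK gene Eif2ak3 (6.16 CPM per kb), Pycr1 (4.52), Slc7a11 (2.68) and Vldlr (0.0397). Of the 43 members, 31 shared no exon bases with another gene, 4 overlapped one on their own strand and 11 one on the other strand, the latter including Ddit3, Hsp90b1, Psph, Eif2ak3 and Manf. The strand setting of the counting is not given in the sources used here, and without strand their reads could not be told apart from those of the opposite gene.

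**Figure D1:**
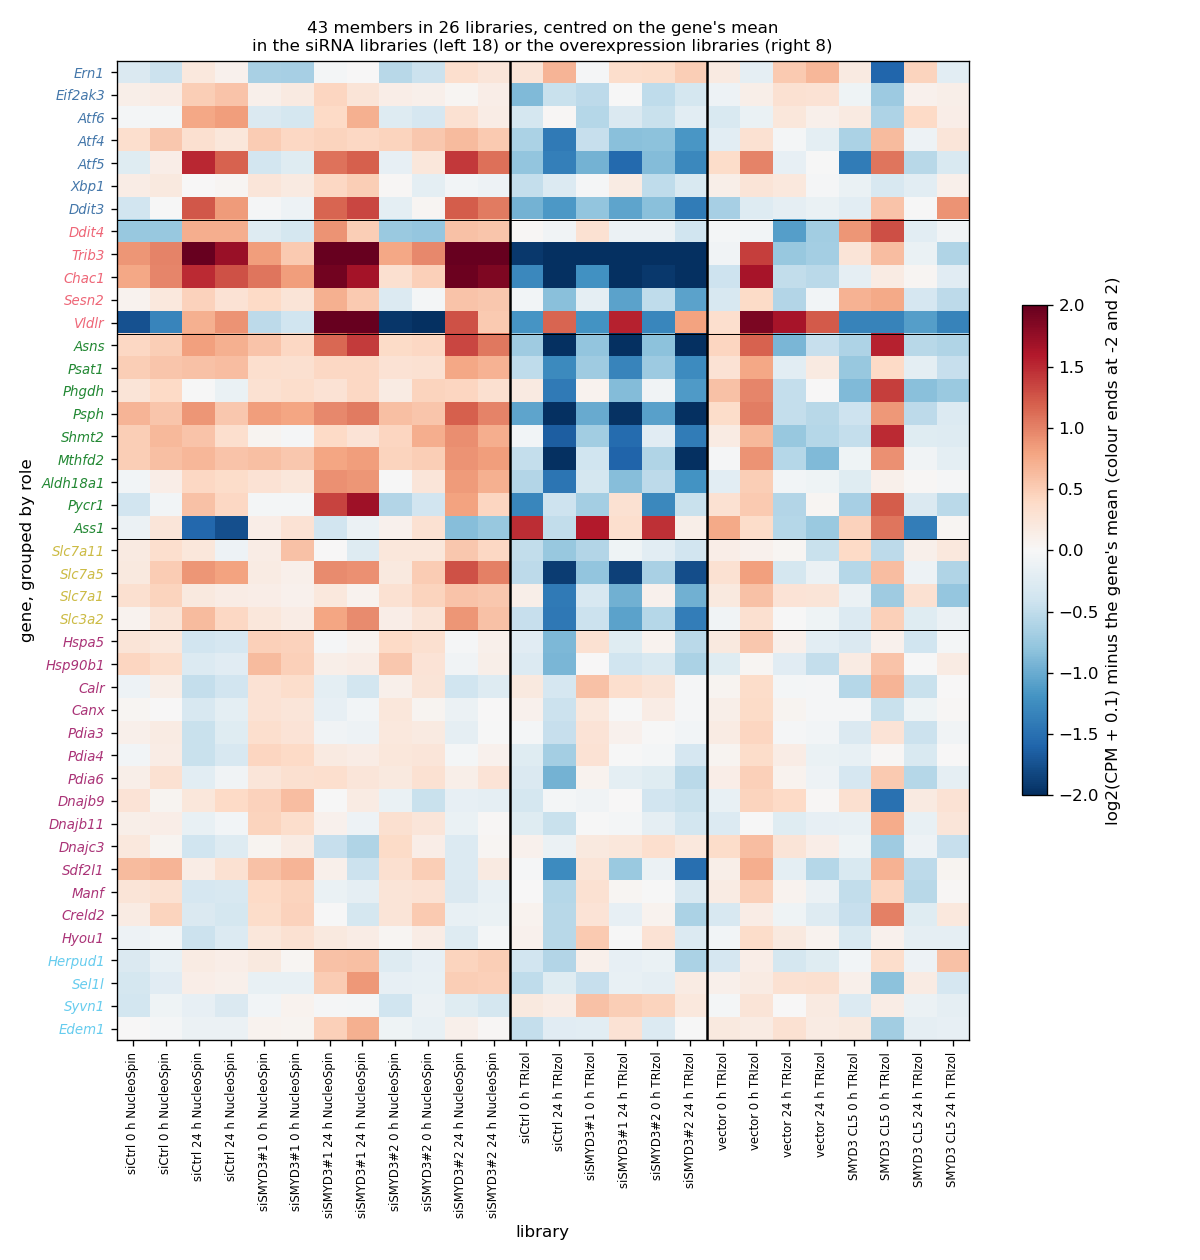
Levels of the 43 members in all 26 libraries, as log2(CPM + 0.1) minus the gene's mean in that experiment's libraries, with genes in rows ordered by role and libraries in columns grouped by extraction and experiment. Trib3, Chac1, Asns and Slc7a5 were lower in the TRIzol than in the NucleoSpin siRNA libraries at both times, and Hspa5 and Hsp90b1 were lower at 24 h than at 0 h in siCtrl libraries of the same extraction.

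In the first comparison, siCtrl cells at 24 h against 0 h, which follows the members through normal differentiation, 10 of the 14 ER chaperones fell and the sensors Ern1 and Atf6 rose. At an edgeR adjusted p under 0.01 over all 15820 genes, 4 of 43 members rose and 11 fell, and 28 did not pass. Of all genes tested, 14.6% rose and 14.8% fell (29.4% called), so the share of members that rose was below the background and the share that fell was above it. The ranges of the 2 groups did not overlap for 13 of 43 members and for 35.3% of all genes. The median log2 difference of the members was -0.22. Since this is bulk RNA, fewer cells of a type and less RNA per cell cannot be told apart.

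Among the 14 chaperones and foldases, 10 fell, 0 rose and 4 did not pass (median log2 difference -0.45). Hspa5 (chr2:34771970-34777547 on GRCm38, plus strand), which encodes BiP, the main ER Hsp70 chaperone, was at 1207, 1164 and 863 CPM at 0 h and at 773, 798 and 540.1 CPM at 24 h. Hsp90b1, the ER Hsp90, went from 1197, 1131 and 736 CPM to 736, 760.03 and 472 CPM. All 3 libraries were lower at 24 h for both genes, and the groups did not overlap for Hspa5 but did for Hsp90b1, whose TRIzol library at 0 h stood with the NucleoSpin libraries at 24 h. Creld2, a secreted ER stress protein, was at 68.7, 83.8 and 64.6 CPM at 0 h and at 50.1, 48.1 and 41.5 CPM at 24 h. The log2 differences were -0.62 ± 0.09 (SE) for Hspa5 (adjusted p = 2.43e-05), -0.64 ± 0.08 for Hsp90b1 (adjusted p = 7.75e-06) and -0.64 ± 0.11 for Creld2 (adjusted p = 0.000179). The other 7 that fell were the neurotrophic ER protein Manf (-0.61), the lectin chaperones Calr (-0.47) and Canx (-0.36), the disulfide isomerases Pdia3 (-0.46), Pdia6 (-0.45) and Pdia4 (-0.43), and Hyou1 (-0.40), a large Hsp70-type chaperone. Sdf2l1 (-0.67, adjusted p = 0.0219) and Dnajc3, an inhibitor of PERK and BiP co-chaperone (-0.38, adjusted p = 0.0288), did not pass. Calr and Pdia6 no longer passed without the NucleoSpin 2 library of 0 h or the TRIzol library of 24 h, and Hyou1 without either TRIzol library or NucleoSpin 1 of 24 h. Of the 8 members with an ERSE, the 6 named Hspa5, Hsp90b1, Calr, Canx, Pdia6 and Creld2 fell. All 6 are chaperones, and Pdia3 and Pdia4, whose promoters held no ERSE, fell as well. No test of the element was run, so role and element cannot be told apart.

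Of the 7 sensors and transcription factors, 2 rose and 0 fell. Atf6 was at 136, 135 and 109 CPM at 0 h and at 238, 248 and 142 CPM at 24 h, and Ern1 was at 45.9, 41.6 and 67.3 CPM at 0 h and at 65.2, 59.6 and 89.4 CPM at 24 h. The groups did not overlap for Atf6, and for Ern1 the TRIzol library was the highest at each time, so that they did. Both rose (log2 difference 0.70 ± 0.13 for Atf6, adjusted p = 0.000273, and 0.48 ± 0.11 for Ern1, adjusted p = 0.00161). Eif2ak3, the third sensor, missed the threshold (0.40, adjusted p = 0.0122), and so did Atf4 mRNA (-0.36, adjusted p = 0.0386).

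Elsewhere, 3 members passed. Ass1, which encodes the argininosuccinate synthase of arginine synthesis, showed the largest fall, from 69.0, 88.4 and 209 CPM to 25.1, 22.2 and 53.5 CPM (-1.82 ± 0.15, adjusted p = 1.20e-07). Pycr1, an enzyme of proline synthesis, rose from 19.2, 24.1 and 10.05 CPM to 37.6, 33.4 and 18.9 CPM (0.77 ± 0.14, adjusted p = 0.000238). Vldlr, a lipoprotein receptor that ATF4 can induce, rose from 0.293, 0.429 and 0.479 CPM to 2.06, 2.35 and 2.85 CPM (2.60 ± 0.41, adjusted p = 6.07e-05). The Ass1 and Vldlr groups did not overlap, and the Pycr1 groups did because its TRIzol library at 24 h lay below both NucleoSpin libraries' levels at 0 h. None of the 4 transporters and none of the 4 degradation genes passed.

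Neighbouring genes of the same pathways showed both directions. Of 20 aminoacyl-tRNA synthetases, which load amino acids onto tRNA, 5 fell and 0 rose, led by Vars (-0.64), Hars (-0.54) and Rars (-0.52). Of 23 genes of the ER translocon, signal peptidase and oligosaccharyltransferase, 7 fell and 0 rose, among them Spcs3 (-0.62) and Sec61a1 (-0.48). Of 28 other ER folding and degradation genes tested, 9 rose and 2 fell, with Sil1, the exchange factor of BiP, at 0.88 and Os9 at 0.74. Among 18 regulators of the integrated stress response 2 rose and 5 fell, the former being Fgf21, a stress-induced hormone (5.82), and Gadd45a (1.51). Of 13 other amino acid transporters 1 rose (Slc43a2, 1.44) and 2 fell, and of 15 mitochondrial stress and one-carbon genes 1 rose and 7 fell, with Shmt1 at -1.52 and Mthfd1 at -1.31.

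The ATF4 targets, the synthesis enzymes and the transporters gave few calls in this comparison, and many of them moved in opposite directions in the 2 extraction batches. Trib3 (chr2:152337422-152344032, minus strand), a pseudokinase and inhibitor of AKT, was at 59.5, 64.2 and 8.36 CPM in siCtrl at 0 h and at 139, 107 and 1.83 CPM at 24 h. Chac1, which degrades glutathione, was at 96.5, 111 and 23.0 CPM at 0 h and at 159, 137 and 3.80 CPM at 24 h. Asns, asparagine synthetase, was at 266, 281 and 122 CPM at 0 h and at 354, 326 and 32.0 CPM at 24 h. For each of the 3 genes both NucleoSpin libraries were higher at 24 h and the TRIzol library was lower at 24 h, and TRIzol libraries were the lowest at both times.

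This was examined, after the data had been seen, by a test of whether the change from 0 h to 24 h, averaged over siCtrl, siSMYD3#1 and siSMYD3#2, differed between the TRIzol and the NucleoSpin libraries. The TRIzol arm has 1 library for each siRNA and time, so its 3 changes come from 3 different siRNAs. These TRIzol libraries all carry 1 replicate number of the study. The p-values of this test therefore measure spread between libraries and not between batches. Of the 43 members, 19 differed at an edgeR adjusted p under 0.01, all 19 with a lower change in the TRIzol libraries. Over all 15820 genes 10.3% differed, 4.77% with a higher and 5.58% with a lower change in TRIzol. By role these were 3 of 7 sensors and factors, 4 of 5 targets, 7 of 9 synthesis enzymes, 3 of 4 transporters, 1 of 14 chaperones and 1 of 4 degradation genes. Leaving out 1 library at a time gave 17 to 19, which does not replicate the batches.

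Trib3 changed by 1.55 ± 0.09 (log2, SE) in NucleoSpin and by -1.85 ± 0.19 in TRIzol libraries, Chac1 by 0.96 ± 0.07 and -1.92 ± 0.12, and Asns by 0.63 ± 0.06 and -1.51 ± 0.09. The tests of the difference gave adjusted p = 1.80e-09 for Trib3 and 2.90e-11 for both Chac1 and Asns. Among the other synthesis enzymes, Mthfd2, the mitochondrial one-carbon dehydrogenase, changed by 0.24 ± 0.07 and -1.59 ± 0.11 (adjusted p = 8.15e-09). The large neutral amino acid transporter Slc7a5 changed by 0.69 ± 0.07 and -1.19 ± 0.10 (adjusted p = 8.38e-10), and its heavy chain Slc3a2 by 0.53 ± 0.06 and -0.80 ± 0.09 (adjusted p = 6.43e-08). Among the transcription factors, Atf5 changed by 1.36 ± 0.08 and -0.54 ± 0.12 (adjusted p = 3.91e-08) and Ddit3, which is CHOP, by 1.25 ± 0.08 and -0.34 ± 0.12 (adjusted p = 1.72e-07). In TRIzol the lower level of Ddit3 did not itself pass (adjusted p = 0.0284). Atf4 mRNA, whose product is controlled in translation, changed by -0.04 ± 0.07 and -0.50 ± 0.10, and the difference did not pass (adjusted p = 0.0113). Psat1, Phgdh and Psph, the serine synthesis pathway, had lower changes in TRIzol by 0.83, 1.09 and 1.38 on the log2 scale.

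Taken by pairs of same-numbered libraries, 12 members were higher at 24 h in all 6 NucleoSpin pairs and lower in all 3 TRIzol pairs: Atf5, Ddit3, Ddit4, Trib3, Chac1, Sesn2, Asns, Psat1, Aldh18a1, Slc7a5, Slc3a2 and Herpud1. By the test in each batch, 12 members rose in NucleoSpin and fell in TRIzol libraries, and none did the opposite. For these joint patterns, by pairs or by test, no share over all genes was computed, so the counts have no background beside them. Of the 43 members, 20 rose and 13 fell in NucleoSpin (26.8% and 23.8% of all genes, 50.6% called), and 5 rose and 27 fell in TRIzol (15.4% and 16.6%, 32.0% called). Of the 7 members with the TGATGNAA element, the 4 named Trib3, Chac1, Asns and Herpud1 had a lower change in TRIzol, and of the 8 with an ERSE none did. Of all 43 members 19 differed between the batches, no test of the elements was run, and 7 of the 8 members with an ERSE are chaperones, so role and element cannot be told apart. The sum of myoblast markers also differed between libraries of 1 group, from 229 to 1302 CPM in siCtrl at 0 h, and its part in these differences was not tested.

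**Figure D2:**
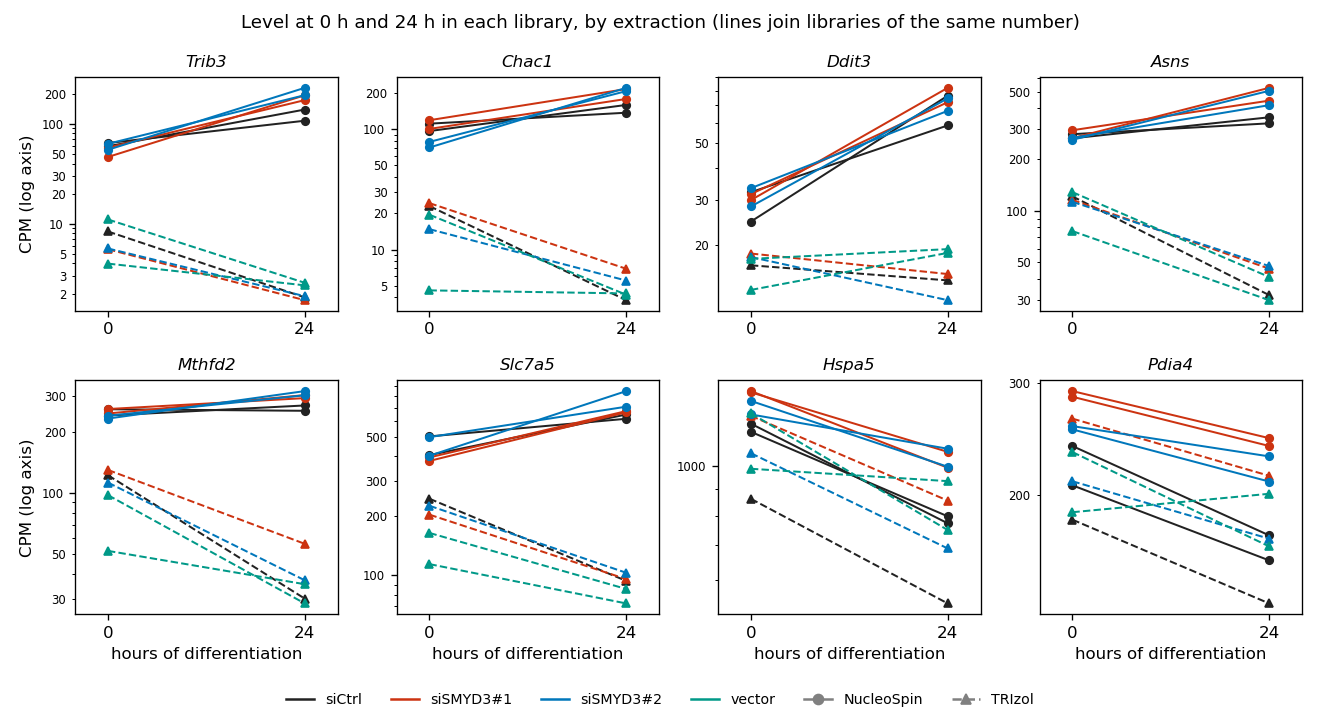
CPM (log axis) at 0 h and 24 h of Trib3, Chac1, Ddit3, Asns, Mthfd2, Slc7a5, Hspa5 and Pdia4, with lines joining libraries of the same number (vector libraries share only a number). In the siRNA libraries Trib3, Chac1 and Asns were higher at 24 h in every NucleoSpin pair and lower in every TRIzol pair, while Hspa5 and Pdia4 were lower in all 9 pairs.

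Of the 14 chaperones, 13 did not pass the test of a difference between batches. Hspa5 changed by -0.45 ± 0.06 in NucleoSpin and by -0.61 ± 0.08 in TRIzol libraries, Hsp90b1 by -0.48 ± 0.06 and -0.46 ± 0.08, and Creld2 by -0.58 ± 0.08 and -0.59 ± 0.11. By the tests in each batch, 10 members fell in both, namely Ass1, Hspa5, Hsp90b1, Calr, Canx, Pdia4, Sdf2l1, Manf, Creld2 and Hyou1. Hyou1 passed the test of a difference between batches (-0.38, adjusted p = 0.00503), with a larger fall in TRIzol. That call was kept in only 4 of 20 alternative fits. Ern1, Vldlr, Pycr1 and Edem1 rose in both batches. The share of all genes that fell or rose in both was not computed. Of the 20 aminoacyl-tRNA synthetases, 14 had a lower change in TRIzol, where 19 fell, and of the 23 translocon genes 0 differed.

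**Figure D3:**
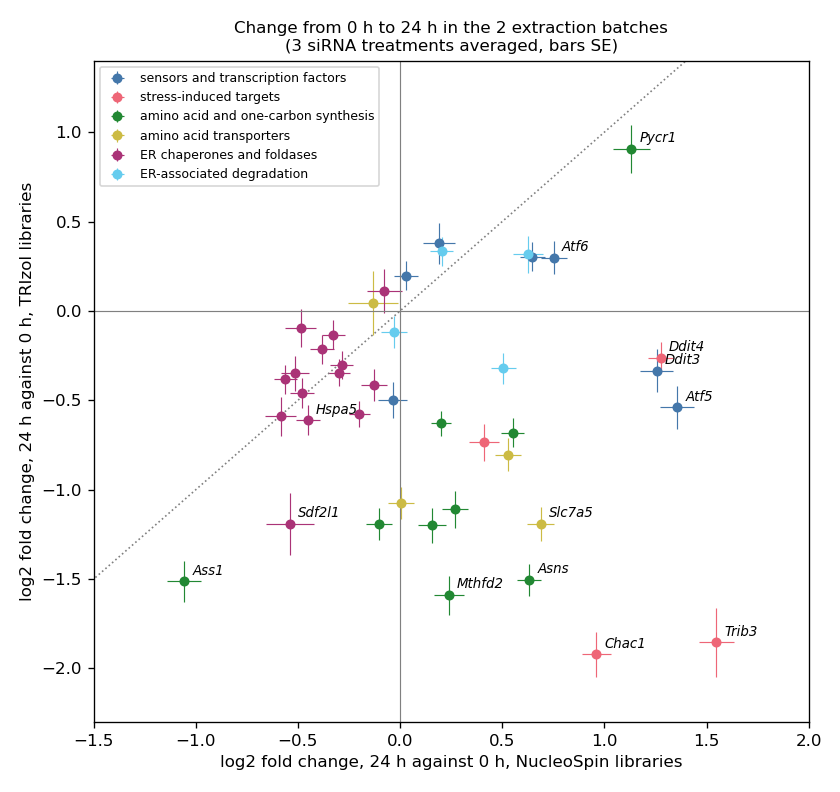
Log2 change from 0 h to 24 h in NucleoSpin (horizontal) and TRIzol (vertical) libraries for the members, with standard errors as bars and colours by role, Vldlr being left off because it lies beyond the axes. Most chaperones lie near the diagonal and below 0, and Trib3 (1.55 and -1.85), Chac1, Asns and Slc7a5 lie far below it.

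With the change from 0 h to 24 h in siCtrl tested within NucleoSpin libraries alone, 13 members rose and 11 fell, and with an extraction-by-time term in the fit (siCtrl change weighted over the batches as the libraries are) 9 rose and 21 fell, against 4 and 11 above. Of all genes, 16.6% rose and 16.6% fell within NucleoSpin libraries, and 18.7% rose and 18.4% fell with the term, so that the share of members that rose was above the background within NucleoSpin libraries. Of the 10 chaperones that fell over all libraries, 8 also fell within NucleoSpin libraries alone (Canx and Hyou1 did not pass) and all 10 fell with the term. Atf5, Ddit3 and Ddit4 rose under both of these alternatives, Trib3, Herpud1 and Slc7a5 rose only within NucleoSpin libraries, Asns and Mthfd2 fell only with the term, and Chac1 rose within NucleoSpin libraries and fell with the term.

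The second comparison asked how the members differed between SMYD3 KD and siCtrl at 24 h. The libraries labelled siSMYD3#1 are named so below, although their lower Smyd3 mRNA did not pass the threshold. With siSMYD3#1 9 of 43 members were raised and 0 lowered, against 2.91% of all genes raised and 2.94% lowered (5.85% called). With siSMYD3#2 2 members were raised and 0 lowered, against 1.66% raised and 2.04% lowered (3.7% called). Ranges that did not overlap were seen for 10 members with siSMYD3#1 (14.6% of all genes) and for 7 with siSMYD3#2 (16.1%). Both siRNA comparisons share the siCtrl libraries. Of the 9 raised with siSMYD3#1, 5 were chaperones. The siCtrl libraries at 24 h also enter the comparison over time above with the opposite sign, so the calls of these comparisons are not independent of it.

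Pdia4, an ER disulfide isomerase, passed with both siRNAs. It was at 158, 173 and 135 CPM in siCtrl, at 246, 239 and 214 CPM in siSMYD3#1 and at 210, 229.9 and 171 CPM in siSMYD3#2. Each siSMYD3#1 library was above all siCtrl libraries, and the siSMYD3#2 TRIzol library lay just below the highest siCtrl library. The log2 differences were 0.59 ± 0.08 (adjusted p = 5.95e-05) and 0.39 ± 0.08 (adjusted p = 0.00397). Ass1 was at 57.6, 69.4 and 95.1 CPM in siSMYD3#1 and at 41.5, 44.4 and 81.3 CPM in siSMYD3#2, against 25.1, 22.2 and 53.5 CPM in siCtrl. In each batch it was higher with either siRNA (1.24 ± 0.15, adjusted p = 4.60e-05, and 0.77 ± 0.15, adjusted p = 0.00426).

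The other 7 members passed with siSMYD3#1 only, which is not a test of a difference between the siRNAs. Hyou1 was at 219, 212 and 190.1 CPM against 142, 157 and 129 CPM in siCtrl (0.53 ± 0.10, adjusted p = 0.00209). Pdia6 was at 537, 504 and 370.2 CPM against 367, 406 and 220 CPM (0.53 ± 0.11, adjusted p = 0.00264). The Hyou1 groups did not overlap, and the Pdia6 groups overlapped through the TRIzol libraries. Hspa5 (0.48 ± 0.09, adjusted p = 0.00156) and Hsp90b1 (0.43 ± 0.08, adjusted p = 0.00206) were also raised, which makes 5 of 14 chaperones. Edem1, a lectin-like protein that hands misfolded glycoproteins to degradation, was at 149, 176 and 132 CPM against 98.6, 98.5 and 91.2 CPM (0.65 ± 0.09, adjusted p = 5.96e-05). Xbp1, the transcription factor spliced by IRE1, was at 205, 216 and 173 CPM against 155, 158 and 128 CPM (0.43 ± 0.09, adjusted p = 0.00394). Gene counts do not separate its spliced form. Pycr1 was at 64.2, 81.6 and 30.9 CPM against 37.6, 33.4 and 18.9 CPM (0.93 ± 0.14, adjusted p = 0.000177). For all 9 members the siSMYD3#1 library was above the siCtrl library in each of the 3 same-numbered pairs. Some of these calls were lost when 1 library was left out: Hsp90b1 without either siCtrl NucleoSpin library, Hyou1 without siCtrl or siSMYD3#1 NucleoSpin 1, Pdia6 without these or the siCtrl TRIzol library, and Xbp1 without either siCtrl NucleoSpin library or any siSMYD3#1 library. Vldlr (1.42 ± 0.35, adjusted p = 0.0111) and Pdia3 (0.36, adjusted p = 0.0105) just missed with siSMYD3#1, as did Hspa5 with siSMYD3#2 (0.39, adjusted p = 0.0107).

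**Figure D4:**
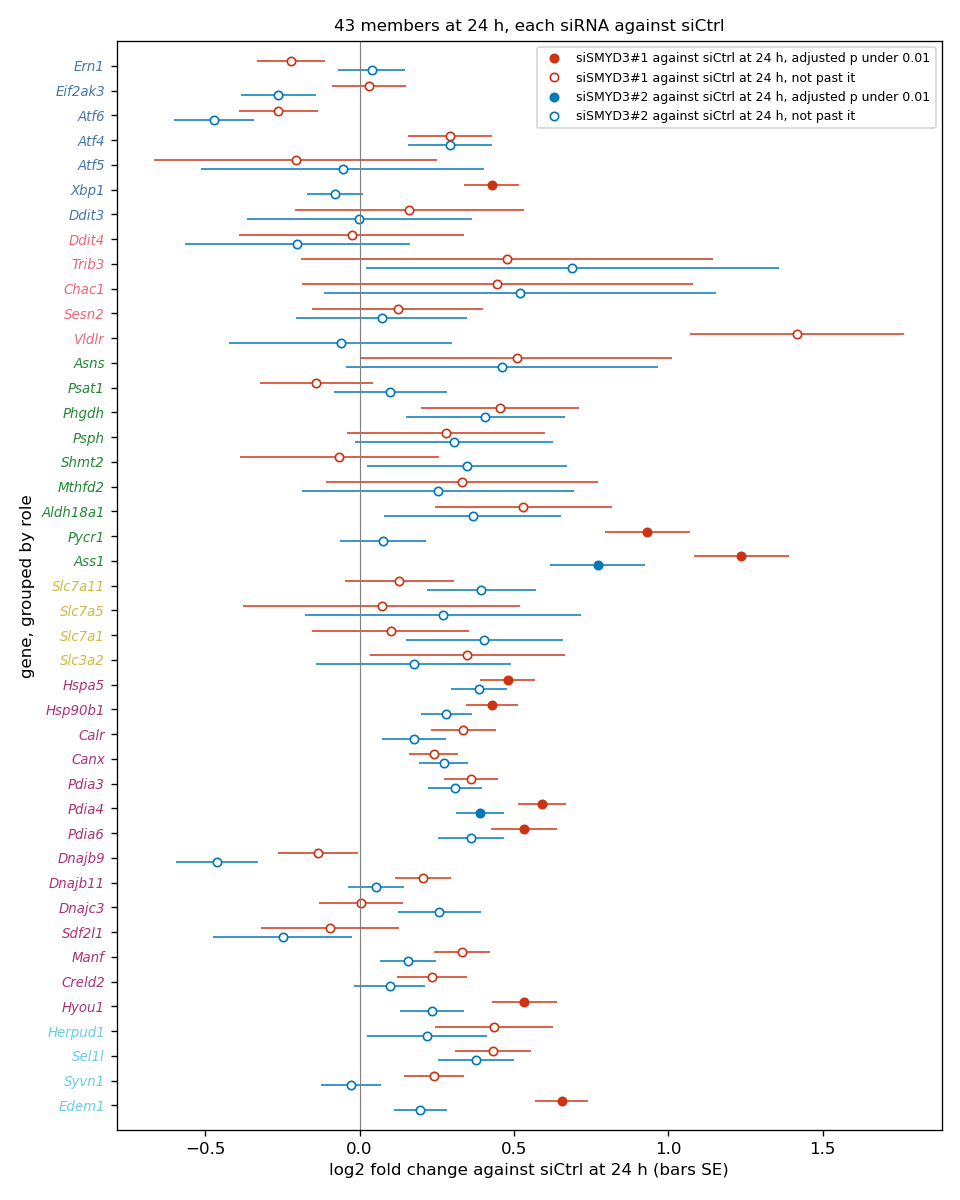
Log2 difference from siCtrl at 24 h ± SE for the 43 members, for siSMYD3#1 and siSMYD3#2, filled where the edgeR adjusted p was under 0.01. Filled points lie to the right of 0 for 9 members with siSMYD3#1 and for Ass1 and Pdia4 with siSMYD3#2, and no filled point lies to the left.

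The siRNAs were also compared directly. Xbp1 (0.51 ± 0.09, adjusted p = 0.00187), Pycr1 (0.86 ± 0.14, adjusted p = 0.000784) and Edem1 (0.46 ± 0.09, adjusted p = 0.00279) were higher with siSMYD3#1 than with siSMYD3#2, that is 3 of 43 members against 2.05% of all genes higher and 1.31% lower (3.36% called). In the siSMYD3#2 libraries at 24 h Xbp1 was at 148, 144 and 125 CPM, below each siCtrl library of the same number. That difference from siCtrl did not pass (-0.08, edgeR adjusted p = 0.667). Smyd3 itself was higher with siSMYD3#1 by 1.27 on the log2 scale (adjusted p = 0.000176). The count of 3 became 0 without the siSMYD3#2 NucleoSpin 2 library, 1 without siSMYD3#1 NucleoSpin 2 or siSMYD3#2 NucleoSpin 1, and 6 without the siSMYD3#1 TRIzol library.

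The muscle marker sum, given above, was lower with both siRNAs at 24 h, and its part in the member differences was not tested. Within the NucleoSpin libraries alone, siSMYD3#1 raised 15 members and lowered 0, against 5.63% of all genes raised and 6.01% lowered. These included Ass1 (1.42), Pycr1 (1.03), Edem1 (0.72) and Pdia4 (0.56), and also Trib3 (0.57), Asns (0.52) and Herpud1 (0.44), which did not pass over all libraries, while Hsp90b1 no longer passed (0.39, adjusted p = 0.0107). For siSMYD3#2 the NucleoSpin libraries gave 7 raised, with Trib3 at 0.77 (adjusted p = 0.000802) and Chac1 at 0.53 (adjusted p = 0.00502), and 2 lowered, Atf6 (-0.58, adjusted p = 0.000996) and Eif2ak3 (-0.44, adjusted p = 0.00321), against 3.26% and 5.12% of all genes. With the extraction-by-time term, chosen after seeing the data, siSMYD3#1 raised 20 and lowered 0 (5.25% and 4.97% of all genes), and siSMYD3#2 raised 10 and lowered 1 (3.51% and 4.37%). Over all libraries, the count for siSMYD3#1 was 5 without the siCtrl NucleoSpin 1 library at 24 h. The count for siSMYD3#2 was 0 without either NucleoSpin library of siCtrl or of siSMYD3#2 at 24 h, 1 without the siCtrl TRIzol library and 5 without the siSMYD3#1 TRIzol library, which is in the fit only for the spread.

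Of the neighbouring lists at 24 h, no aminoacyl-tRNA synthetase passed with either siRNA. With siSMYD3#1, 4 of 28 other ER folding genes were raised, led by the peptidyl-prolyl isomerase Fkbp11 (0.83) and the isomerase Pdia5 (0.73), and 3 of 23 translocon genes (Ssr2 at 0.45, Ddost at 0.39 and Ostc at 0.39). With siSMYD3#2 1 gene of each of these lists passed, Uggt1 (0.47) and Ssr1 (0.51). Of the 13 other transporters, the neutral amino acid carrier Slc38a1 was raised (0.43 and 0.48) and Slc43a2 lowered (-0.68 and -0.78) with siSMYD3#1 and siSMYD3#2. With siSMYD3#2, Fgf21 was lowered (-0.98) and Hspd1 (0.60) and Mthfd1 (0.40) were raised.

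At 0 h few members passed at an adjusted p under 0.01. With siSMYD3#1 Pdia4 alone passed, at 291, 285 and 264 CPM against 207, 239 and 183 CPM in siCtrl (0.43 ± 0.08, adjusted p = 0.00383), which is 1 of 43 raised and 0 lowered, against 0.575% of all genes raised and 0.853% lowered (1.43% called). Pdia4 did not pass without the siCtrl TRIzol or NucleoSpin 1 library or without any 1 siSMYD3#1 library of 0 h. Within NucleoSpin libraries Pdia4 did not pass (0.37, adjusted p = 0.0173) and Shmt2, the mitochondrial serine hydroxymethyltransferase, was lowered instead (-0.56, adjusted p = 0.00624), with 3.04% of all genes called. With siSMYD3#2 0 members passed by edgeR (0.316% of all genes raised and 0.215% lowered, 0.531% called), and DESeq2 called 0. At an unadjusted p under 0.05 by edgeR there were 13 of 43 members with siSMYD3#1 and 2 of 43 with siSMYD3#2, against 2196 and 1596 of 15820 genes. The ranges did not overlap for 8 members with siSMYD3#1 (11.5% of all genes) and for 1 with siSMYD3#2 (6.68%). The tests of whether an siRNA's difference at 24 h differed from that at 0 h gave 0 members for each siRNA by edgeR. Of all genes, 0.0442% were raised and 0.171% lowered for siSMYD3#1 (0.215% called), and 0% and 0.019% for siSMYD3#2 (0.019% called). At an unadjusted p under 0.05 there were 5 and 4 of 43 members, against 1388 and 1585 of 15820 genes. DESeq2 called 1 and 0 members. Within NucleoSpin libraries Ass1 passed for siSMYD3#1 (1.28, adjusted p = 0.00111) and Chac1 for siSMYD3#2 (1.00, adjusted p = 0.00286), with 1.05% and 1.15% of all genes called.

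In SMYD3 OE no member passed. The muscle marker sum at 24 h was 968 to 994 CPM in SMYD3 CL5 and 36.2 to 52.5 CPM in the vector control. At 0 h it was 106 to 520 CPM and 4.61 to 8.57 CPM. Its part in the member differences was not tested. Between SMYD3 CL5 and the vector control 0 of 43 passed by edgeR at 24 h and 0 at 0 h, against 0.376% of all genes raised and 0.589% lowered (0.964% called) at 24 h and 0.465% and 0.606% (1.07% called) at 0 h. At an unadjusted p under 0.05 there were 2 and 3 of 43 members, against 2488 and 3258 of 17835 genes. DESeq2 called 0 and 2 members. Those 2 were Ddit4 and Vldlr at 0 h. Ddit4, an inhibitor of mTORC1 that is also called REDD1, was at 226 and 298 CPM in SMYD3 CL5 and at 119 and 118 CPM in the vector control at 0 h (1.15 ± 0.24, edgeR adjusted p = 0.0474), and at 105 and 117 against 56.6 and 75.1 CPM at 24 h (0.75 ± 0.24, adjusted p = 0.192). The groups did not overlap at either time, as was so for 12 members and 48.3% of all genes at 0 h and for 24 members and 51.6% at 24 h.

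Vldlr had 7 and 34 counts in the vector libraries at 0 h and 0 in both SMYD3 CL5 libraries, at least 14.7-fold lower with a floor of 3 counts over the group. At 24 h it had 31 and 32 counts in the vector libraries and 1 and 0 in SMYD3 CL5, a ratio of 44.6 with a 95% counting interval of 7.72 to 1788. The bound and the interval cover counting error only, and SMYD3 CL5 is 1 clone, so that what is due to the clone and to SMYD3 cannot be told apart. Of the other targets, Trib3 lay between 2.42 and 11.02 CPM and Chac1 between 4.22 and 19.5 CPM in its 8 libraries.

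The SMYD3 CL5 libraries at 0 h stood apart from each other in members of several roles. Replicate 1 and replicate 2 held 37.0 and 164 CPM of Asns, 81.5 and 391 CPM of Phgdh, 125 and 489 CPM of Shmt2, and 24.4 and 135 CPM of Atf5. Replicate 2 was the higher for each of these, and also for Calr (548 and 1311 CPM) and Creld2 (47.3 and 132 CPM). It was the lower for Ern1 (77.6 and 22.8 CPM), Dnajb9 (20.9 and 5.89 CPM) and Edem1 (109 and 58.4 CPM), among others. The muscle marker sum in these libraries ran from 106 to 520 CPM, and its part in these values was not tested. Without replicate 1 or replicate 2 the group holds 1 library, which is then assumed to vary like the other groups. No calls are given from such fits.

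In vector control cells from 0 h to 24 h, 0 members passed by edgeR, as did 0 of all genes (0% called), and DESeq2 called 0 members. At an unadjusted p under 0.05 there were 7 of 43 members, against 1256 of 17835 genes. Asns was at 76.0 and 129 CPM at 0 h and at 29.9 and 40.9 CPM at 24 h, lower in both libraries at 24 h (-1.53, adjusted p = 0.684), and Trib3 was at 3.99 and 11.02 CPM and then at 2.42 and 2.56 CPM (-1.59, adjusted p = 0.514). Neither gene's groups overlapped, as was so for 27 members and 61.3% of all genes. The muscle marker sum of these cells was 36.2 to 52.5 CPM at 24 h, below the 488 to 1332 CPM of siCtrl.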

How the data were processed

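The authors deposited raw counts per gene for each library; per the labels and the submitters' processing notes, reads were checked with FastQC 0.11.5, aligned to GRCm38 with HISAT2 2.1.0 and counted with featureCounts of Subread 1.6.3. The annotation release, strand setting and treatment of multi-mapping reads are not given in the sources used here. Gene symbols came from GENCODE M21, which matched 54495 of 55341 identifiers.

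Counts were analysed with edgeR 4.0.16 in R 4.3.3 (filterByExpr, TMM, robust quasi-likelihood test), with extraction as a covariate in the siRNA fit of 18 libraries (15820 genes, 11 residual degrees of freedom) and none in the overexpression fit of 8 (17835 genes, 4). Benjamini-Hochberg adjustment ran over all genes, and members were called at an adjusted p under 0.01. A standard error is the log2 difference divided by the square root of F. DESeq2 1.42.0 was an alternative. Scripts were tested on simulated data.

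The members and lists were chosen with earlier results of these data known. Named were Smyd3, members by role, with values per library for at most the 3 largest called differences per role and comparison, and the 3 largest called genes of each list. The batch-by-time comparison and its named genes, and the overexpression genes, were added after seeing the data. The study's methods call the replicates biological without saying whether they were separate cultures, so p-values measure the spread between these libraries. Replicate numbers came from the study's library list. Deviations of same-numbered siRNA libraries correlated at 0.41 to 0.85, which followed the extraction kits, since within NucleoSpin libraries the correlations were -0.034 to 0.18. In the overexpression experiment they were -0.097, 0.14 and -0.0076.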

Additional observations from a re-analysis of the deposited data

Results flagged for a closer look

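For 19 members the change from 0 h to 24 h differed between the extraction batches by the interaction test described above, which was chosen after the data were seen and rests on 1 TRIzol library per siRNA and time. All TRIzol siRNA libraries carry 1 replicate number, so the test does not measure spread between batches. Values are log2 changes in TRIzol minus those in NucleoSpin libraries. Among sensors and factors the differences were -0.45 for Atf6, -1.90 for Atf5 and -1.59 for Ddit3. The Atf6 difference passed only narrowly, and it did not pass with RLE size factors or in 15 of 18 fits that left out 1 library. The Hyou1 difference kept its call in only 4 of 20 alternative fits, and every loss came from leaving out 1 library. Among targets they were -1.54 for Ddit4, -3.40 for Trib3, -2.88 for Chac1 and -1.15 for Sesn2. The synthesis enzymes differed by -2.14 for Asns, -0.83 for Psat1, -1.09 for Phgdh, -1.38 for Psph, -1.35 for Shmt2, -1.83 for Mthfd2 and -1.24 for Aldh18a1. The transporters differed by -1.88 for Slc7a5, -1.08 for Slc7a1 and -1.33 for Slc3a2, the chaperone Hyou1 by -0.38, and the degradation gene Herpud1 by -0.83. Extraction, passage and culture cannot be told apart for any of them.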

How the results depend on the processing

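Counts of members called in siCtrl over time (15 of 43), with siSMYD3#1 and siSMYD3#2 against siCtrl at 24 h (9 and 2), at 0 h (1 and 0), and between the siRNAs at 24 h (3) depended on how extraction was handled. Without the extraction covariate they were 4, 0, 0, 0, 0 and 0, within NucleoSpin libraries 24, 15, 9, 1, 0 and 8 (the 1 at 0 h being Shmt2, lowered, in place of Pdia4, raised), and with the extraction-by-time term 30, 20, 11, 5, 1 and 5. Without the low-count filter they were 26, 18, 10, 2, 1 and 6. Shares of all genes for some counts within NucleoSpin libraries and with the term were given above. Other counts from alternative fits, here and above, have no share over all genes beside them. The tests of a changed siRNA difference over time (0 and 0) gave 1 and 1 within NucleoSpin libraries and with the term, and 2 and 3 without the filter. In the overexpression experiment, removing the filter gave 1 for SMYD3 CL5 at 24 h, 2 at 0 h and 1 for vector cells over time, all from 0. DESeq2 gave 4 for siSMYD3#2 at 24 h, 2 for siSMYD3#1 at 0 h, 1 for the changed siSMYD3#1 difference and 2 for SMYD3 CL5 at 0 h. The cause was not tested. A fit with a replicate block gave the same counts (15, 9, 2, 1, 0, 3, 0 and 0, and 0 for each overexpression comparison), so the pairing changed no count. Leaving out 1 library gave 13 to 18 for siCtrl over time, 5 to 10 and 0 to 5 at 24 h, 0 to 1 and 0 to 0 at 0 h, and 0 to 6 between the siRNAs. It gave 0 to 1 and 0 to 0 for the changed differences (1 without siCtrl NucleoSpin 1 at 0 h or siSMYD3#1 TRIzol at 24 h), and 17 to 19 for the batch-by-time test. For that test DESeq2 gave 20 and RLE size factors 18. In the overexpression experiment leaving out 1 library left 1 in its group, and those fits are not counted here. Of the named genes called over all libraries, none reversed under the alternatives run. Of those not called, Chac1 over time in siCtrl was at -0.29 over all libraries, at 0.50 (called) within NucleoSpin libraries and at -0.49 (called) with the term, and Slc7a5 was at -0.13 and, within NucleoSpin libraries, at 0.46 (called). With 1 TRIzol library per siRNA and time, a TRIzol level has no replicate of its own.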
